A study of Homo sapiens and Mus musculus with 10 samples.

Results

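Fatty acid synthesis and elongation was followed through 10 genes of the 63140 in the human expression table, in A375 melanoma cells cultured with or without the antimicrobial peptide LL-37. The genes were ELOVL6, its relatives ELOVL1 and ELOVL5, the lipogenic enzyme genes FASN, SCD, ACACA, ACLY, ACSL3 and FADS1, and the regulator gene SREBF1. They were picked by symbol after ELOVL6 had been seen past the threshold in a comparison of LL-37 with control libraries that left out LL-37 replicate 3, so the differences between the groups given for them are a description. A375 is an established human melanoma line. The LL-37 group received the peptide at 80 µg/mL for 24 h (n = 3), and the Ctrl group was left untreated for the same time (n = 3). The series text calls both sets biological triplicates, and it names no vehicle. Because all libraries come from 1 cell line, the spread between them is the spread of cultures, not of patients. The series also holds 4 libraries of tumour-bearing mouse skin, which were not analysed here.

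Cells build saturated fatty acids in the cytosol. ATP citrate lyase (ACLY) makes acetyl-CoA from citrate, acetyl-CoA carboxylase (ACACA) turns it into malonyl-CoA, and fatty acid synthase (FASN) assembles palmitate. In the endoplasmic reticulum ELOVL6 lengthens palmitate to stearate, stearoyl-CoA desaturase (SCD) introduces a double bond to give oleate and palmitoleate, and the transcription factor SREBP-1, the product of SREBF1, drives most of these genes. ELOVL6 is itself known as an SREBP-1 target in mouse liver.

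The promoter windows of ELOVL6, SCD and SREBF1 are printed because ELOVL6 carried the difference described below, SCD acts beside it on the same fatty acids and is a common SREBP-1 target, and SREBF1 encodes the regulator. Each window runs from 250 bases before to 50 bases after the RefSeq gene start (GRCh38.p14), 5′ to 3′ on the gene's strand, and lies at chr4:110198566-110198865 for ELOVL6 (minus strand), chr10:100346983-100347282 for SCD (plus strand) and chr17:17836937-17837236 for SREBF1 (minus strand). Capitals mark the GC box GGGCGG that Sp1 binds and the CCAAT box that NF-Y binds, on either strand.
ELOVL6: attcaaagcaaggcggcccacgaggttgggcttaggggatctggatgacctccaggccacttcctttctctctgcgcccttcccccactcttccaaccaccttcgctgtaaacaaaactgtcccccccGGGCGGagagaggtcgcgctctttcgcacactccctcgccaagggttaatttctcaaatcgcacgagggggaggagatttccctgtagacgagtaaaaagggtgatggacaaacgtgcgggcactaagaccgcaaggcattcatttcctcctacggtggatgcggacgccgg
SCD: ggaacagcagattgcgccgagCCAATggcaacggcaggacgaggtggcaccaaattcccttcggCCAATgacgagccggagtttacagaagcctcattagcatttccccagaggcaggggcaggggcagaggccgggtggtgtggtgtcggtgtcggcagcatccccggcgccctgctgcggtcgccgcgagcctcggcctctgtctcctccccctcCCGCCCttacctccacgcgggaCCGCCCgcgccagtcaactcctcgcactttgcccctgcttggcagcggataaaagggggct
SREBF1: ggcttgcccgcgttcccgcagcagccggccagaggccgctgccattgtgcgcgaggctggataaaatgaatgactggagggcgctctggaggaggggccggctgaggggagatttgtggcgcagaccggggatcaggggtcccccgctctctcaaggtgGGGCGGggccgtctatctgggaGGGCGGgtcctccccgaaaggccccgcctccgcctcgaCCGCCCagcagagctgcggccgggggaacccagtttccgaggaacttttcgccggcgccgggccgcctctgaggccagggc
The ELOVL6 window held 1 GC box and no CCAAT box, the SCD window held 2 of each, and the SREBF1 window held 3 GC boxes. Of 35116 RefSeq windows of this length, 45.0% held a GC box and 34.6% a CCAAT box. The sterol regulatory element core TCACNCCAC was found in 0 of the 12 windows of the 9 genes with an entry (ACACA has 3 and ACLY 2) and in 1.13% of all windows. The E-box CACGTG was in the ELOVL5 window and in 7.26% of all windows. In the windows printed no match overlaps another, whereas GC boxes overlap each other in ACACA windows and a GC box overlaps the CCAAT box of ELOVL1. FASN had no entry. These matches describe letters at the RefSeq starts and say nothing about binding. All windows of ELOVL6, ACLY and FADS1 lie inside the GENCODE 29 gene spans, whose 5′ ends are at 110199199, 41930542 and 61829318. Other starts of these genes were not searched.

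ELOVL6 was 35.3, 31.9 and 8.64 TPM in LL-37 replicates 1, 2 and 3, against 13.7, 13.1 and 13.8 TPM in Ctrl replicates 1, 2 and 3. TPM is a transcript abundance scaled for transcript length and library total, so levels of different genes can be set side by side. In LL-37 replicate 3 the values still moved with transcript length, as given below. LL-37 replicates 1 and 2 lay far above every Ctrl library and replicate 3 lay below every Ctrl library, so the groups overlapped. The mean was 25.3 ± 14.5 TPM with LL-37 and 13.5 ± 0.399 TPM in Ctrl (SD, n = 3 each). In LL-37 replicates 1 and 2 ELOVL6 was 2.61 and 2.36 times the Ctrl mean, and in replicate 3 it was 0.638 times. The log2 change, on the log2(TPM + 1) scale, was 0.64 ± 0.50 (SE) with all 6 libraries and 1.25 ± 0.09 (SE) without LL-37 replicate 3. In a pool of cells, more transcript per cell and more cells that express the gene cannot be told apart.

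**Figure D1:**
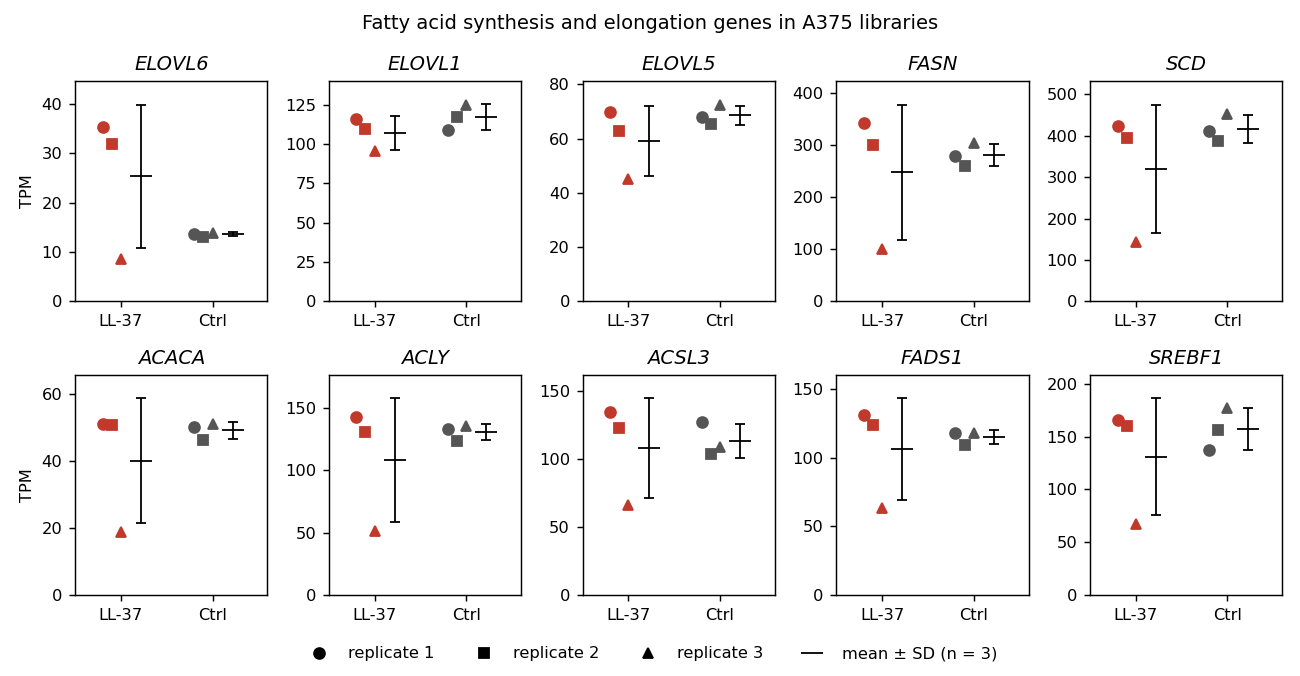
TPM of the 10 genes in each A375 library, with LL-37 at the left and Ctrl at the right of each panel, symbols for replicate numbers and bars for the mean ± SD (n = 3). ELOVL6 in LL-37 replicates 1 and 2 (35.3 and 31.9 TPM) stands above Ctrl (13.1 to 13.8 TPM), and replicate 3 is below Ctrl in every panel.

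With all 6 libraries, 0 of the 10 genes passed the threshold (limma, Benjamini-Hochberg adjusted p under 0.05 over 14399 tested genes), and over all tested genes 0.0% passed, with a smallest adjusted p of 0.197 and 363 genes at an unadjusted p under 0.05, none of them among the 10. Without LL-37 replicate 3, 1 of the 10 passed, ELOVL6 itself, where 0.118% of all tested genes passed, 0.0486% higher and 0.0694% lower. That is the value that chose it. ELOVL6 had an adjusted p of 0.00232 in that limma fit and the next gene, FASN, one of 0.541. In it 2 of the 10, ELOVL6 and FASN (0.0462), had an unadjusted limma p under 0.05, against 9.01% of all tested genes. ELOVL6 ranked 22 of 14399 by log2 change without LL-37 replicate 3 and 76 with all libraries.

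LL-37 replicate 3 differed from the rest well beyond these genes. Its log2 values correlated at 0.949 to 0.963 with the others, against 0.985 to 0.992 among the other 5. In it 12991 genes reached 1 TPM, compared with 14304 to 14555 in the rest, and its median tested gene lay at -0.59 from the Ctrl mean on the log2 scale, compared with 0.02 and -0.03 in LL-37 replicates 1 and 2. For this reason the values below are given by library and with and without it. The labels' protocol speaks of cultured keratinocytes, and keratinocyte markers were checked. KRT1, TP63 and DSG3 were listed at 0 in all 6 libraries. A listed gene is called measured where it reached 1 TPM in 3 or more libraries, and sums are over all genes of a list. Of the 8 keratinocyte markers 3 were measured. The list summed to 21.3 to 26.8 TPM with LL-37 and 28.8 to 30.0 TPM in Ctrl, most of it KRT10. The melanocyte lineage list had 5 of 10 markers measured, led by SOX10 and GPNMB, and summed to 318 to 650 TPM with LL-37 and 572 to 631 TPM in Ctrl. The pigment genes TYR and MLANA were listed at 0 or at most 0.02 TPM, and PMEL, TYRP1 and DCT at most at 1.25, 1.39 and 0.74 TPM. Of the 8 markers of fat cells and sebocytes, which are rich in lipogenic enzymes, none was measured, and their sum was 0.24 to 0.6 TPM with LL-37 and 0.24 to 0.38 TPM in Ctrl. Fibroblast markers (3 of 8 measured) summed to 3.41 to 7.97 and 7.18 to 8.02 TPM in LL-37 and Ctrl libraries, leukocyte markers (2 of 6) to 22.7 to 41.6 and 35.8 to 42.9 TPM, and endothelial markers (1 of 4) to 0.94 to 3.27 and 2.08 to 2.56 TPM. The part of these markers in the lipid gene values was not tested.

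The 2 other elongases among the 10 were near their Ctrl levels in LL-37 replicates 1 and 2. ELOVL1, which extends saturated and monounsaturated very long chains, was 116.0, 109.7 and 95.4 TPM with LL-37 and 108.6, 117.2 and 125.0 TPM in Ctrl. ELOVL5, which extends polyunsaturated fatty acids, was 69.8, 62.7 and 45.0 TPM with LL-37 and 67.9, 65.5 and 72.5 TPM in Ctrl. Of these values the ELOVL5 level in LL-37 replicate 2 lay just below the Ctrl range, and for both genes LL-37 replicate 3 was lowest. The log2 change of ELOVL1 was -0.13 ± 0.12 (SE) over 6 libraries, or -0.05 ± 0.07 once LL-37 replicate 3 was set aside, and that of ELOVL5 was -0.23 ± 0.18, or -0.05 ± 0.08. As a share of the summed TPM of all 7 ELOVL genes, ELOVL6 was 15.1%, 14.8% and 5.42% with LL-37 and 6.76%, 6.31% and 6.22% in Ctrl. ELOVL1 made up the largest share in every library, 49.5% to 59.8% with LL-37 and 53.6% to 56.5% in Ctrl. ELOVL6 has a longer transcript than ELOVL1 (6454 against 1625 bases), and longer transcripts were lower in LL-37 replicate 3, as given below. The part of length in the shares of that library was not tested.

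The enzymes that supply and build palmitate were near their Ctrl levels in LL-37 replicates 1 and 2. ACLY was 142.6, 130.4 and 51.2 TPM with LL-37 and 133.2, 123.2 and 136.0 TPM in Ctrl. ACACA, whose product malonyl-CoA feeds both synthesis and elongation, was 51.0, 50.7 and 18.7 TPM with LL-37 and 50.1, 46.4 and 51.2 TPM in Ctrl. FASN was 342.6, 300.8 and 99.5 TPM with LL-37 and 279.8, 260.7 and 303.3 TPM in Ctrl. FASN in LL-37 replicate 1 exceeded each Ctrl library and replicate 2 did not, so the groups overlapped even without replicate 3. The log2 changes of ACLY, ACACA and FASN were -0.41 ± 0.38, -0.42 ± 0.38 and -0.37 ± 0.45 (SE) with all libraries. Without LL-37 replicate 3 they were 0.06 ± 0.07, 0.05 ± 0.07 and 0.19 ± 0.08.

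SCD, the most abundant of the 10 in 6 of 6 libraries, was 423.7, 395.0 and 142.7 TPM with LL-37 and 411.5, 386.6 and 452.8 TPM in Ctrl. Its log2 change was -0.53 ± 0.40 (SE) over 6 libraries and -0.02 ± 0.07 when LL-37 replicate 3 was left out. FADS1, the delta-5 desaturase of polyunsaturated fatty acids, was 131.3, 123.5 and 63.5 TPM with LL-37 and 118.1, 109.5 and 118.0 TPM in Ctrl. Here LL-37 replicates 1 and 2 both lay above every Ctrl library by a small margin, and replicate 3 lay below them all. The FADS1 gene overlaps FADS2 on the opposite strand, and whether the authors counted by strand is not given in the sources used here. ACSL3, an acyl-CoA synthetase that activates fatty acids at lipid droplets, was 134.7, 123.2 and 66.4 TPM with LL-37 and 127.1, 103.6 and 109.0 TPM in Ctrl. Log2 changes without LL-37 replicate 3 were 0.14 ± 0.07 for FADS1 and 0.19 ± 0.09 for ACSL3, and with all libraries -0.19 ± 0.28 and -0.13 ± 0.27 (SE).

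SREBF1 was 165.5, 160.0 and 67.5 TPM with LL-37 and 137.2, 156.2 and 176.8 TPM in Ctrl, with LL-37 replicates 1 and 2 inside the Ctrl range. Its log2 change was -0.36 ± 0.35 (SE) over 6 libraries and 0.06 ± 0.10 when LL-37 replicate 3 was left out. The ratio of SREBF1 to SREBF2, the gene of the sterol-directed SREBP-2, was 2.05, 2.20 and 2.82 with LL-37 and 2.04, 2.33 and 2.39 in Ctrl.

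Without LL-37 replicate 3, the log2 changes of the 9 genes other than ELOVL6 lay between -0.05 and 0.19, and 2 of the 10, ELOVL6 and FADS1, had groups that did not overlap, both higher, where this held for 25.1% of all tested genes in either direction and 12.3% in that one. With all 6 libraries and TPM as deposited, 0 of the 10 had groups apart, against 12.4% of all tested genes in either direction. The log2 changes of the 9 then lay between -0.53 and -0.13. Over 6 libraries the median log2 change was -0.30 for the 10 genes and -0.20 for all tested genes, and leaving out LL-37 replicate 3 gave 0.06 and -0.0039. Median-of-ratios scaling of the TPM brought the median of all tested genes to 0.0023, left ELOVL6 at 0.86 and turned ELOVL1, ELOVL5, ACSL3 and FADS1 to small positive values (0.01 to 0.12). With that scaling ELOVL6 was 31.7, 29.9 and 13.1 with LL-37 and 12.4, 12.5 and 12.3 in Ctrl. Its groups were then apart, narrowly for LL-37 replicate 3, where 12.6% of all tested genes were apart in either direction. The share apart and higher with that scaling is not given here, and as deposited it was 2.13%. LL-37 replicates 1 and 2 are libraries that chose ELOVL6, so this too is a description. In TPM as deposited, the 10 genes together held 1612, 1488 and 658 TPM in the LL-37 libraries and 1447, 1382 and 1558 TPM in the Ctrl libraries. LL-37 replicate 2 was below LL-37 replicate 1 for 10 of the 10 genes, and LL-37 replicate 3 was below the Ctrl range for 10 of 10, as it was for 76.8% of all tested genes.

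**Figure D2:**
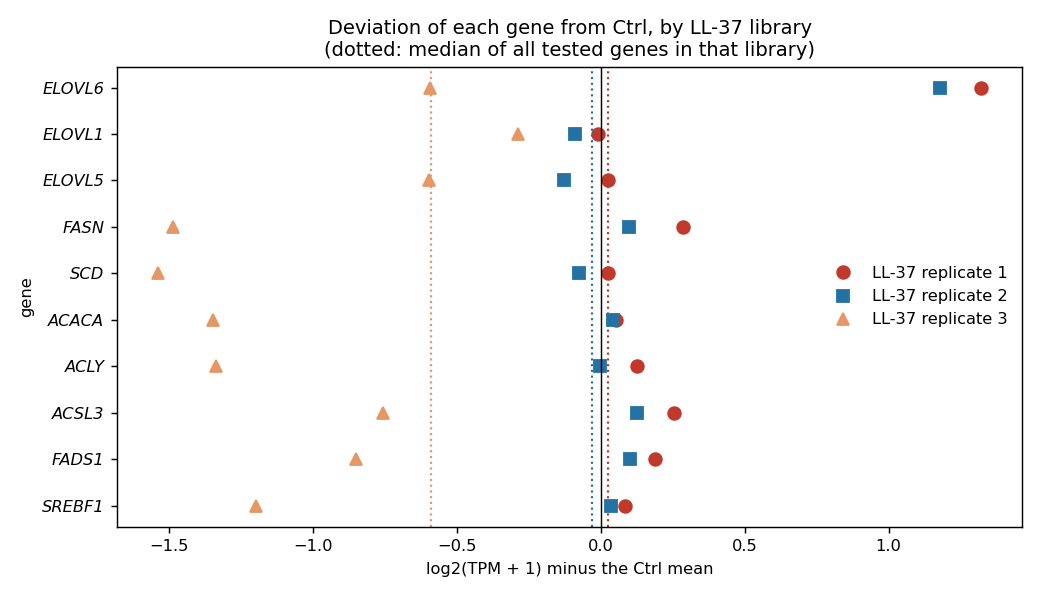
Difference of log2(TPM + 1) from the Ctrl mean for each gene (rows) in each LL-37 library (symbols), with dotted lines at the median of all tested genes in that library. ELOVL6 is at 1.32 and 1.18 in LL-37 replicates 1 and 2, where the other 9 genes lie between -0.13 and 0.29, and at -0.59 in replicate 3, which is also that library's median over all genes (-0.59).

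The order of levels was stable at both ends. In Ctrl the means ran from SCD (417 TPM) through FASN (281.2 TPM) and SREBF1 (156.7 TPM) to ELOVL5 (68.6 TPM), ACACA (49.2 TPM) and ELOVL6 (13.5 TPM), with ACLY, ELOVL1, FADS1 and ACSL3 between 113.2 and 130.8 TPM. Among these 4 the ranges of neighbours overlapped, and all other neighbours in the Ctrl order were apart. ELOVL6 was the lowest of the 10 in 6 of 6 libraries. Over LL-37 replicates 1 and 2 its mean of 33.6 TPM remained below that of ACACA, 50.8 TPM.

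ELOVL6 was also set against each of the other 9 genes within the same library. LL-37 replicates 1 and 2 are libraries that chose ELOVL6, and in LL-37 replicate 3 it lay at the median of all tested genes, so these ratios are a description. ELOVL6 was 10.3%, 10.6% and 8.68% of the FASN level with LL-37 and 4.90%, 5.02% and 4.56% in Ctrl. Relative to SCD it was 8.34%, 8.08% and 6.06% with LL-37 and 3.33%, 3.38% and 3.05% in Ctrl. Against ACACA the values were 69.3%, 63.0% and 46.2% with LL-37 and 27.4%, 28.2% and 27.0% in Ctrl. For 7 of the 9 genes the ratio was higher in every LL-37 library than in every Ctrl library, and the same held for ELOVL6 against 47.2% of the 14243 other tested genes above 0 in all 6 libraries. For ACSL3 (13.0% in LL-37 replicate 3, 12.7% in Ctrl replicate 3) and FADS1 (13.6% and 11.9% in Ctrl replicate 2) the gap was narrow. Relative to ELOVL1 and ELOVL5 the groups overlapped, with 9.06% and 19.2% in LL-37 replicate 3, against 11.1% to 12.6% and 19.1% to 20.2% in Ctrl. In LL-37 replicate 3 FASN, SCD and ACACA were at 0.354, 0.342 and 0.380 of their Ctrl means, and ELOVL6 was at 0.638. All of these have long transcripts, with 8565 bases for FASN, 5362 for SCD, 9961 for ACACA and 6454 for ELOVL6. The share of 47.2% was not split by transcript length. Of the 9 genes, ELOVL1 and ELOVL5 have the shortest transcripts (1625 and 3081 bases), and the other 7 have 4339 bases or more. Longer transcripts were lower in LL-37 replicate 3, as given below. The part of length in the count of 7 was not tested.

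**Figure D3:**
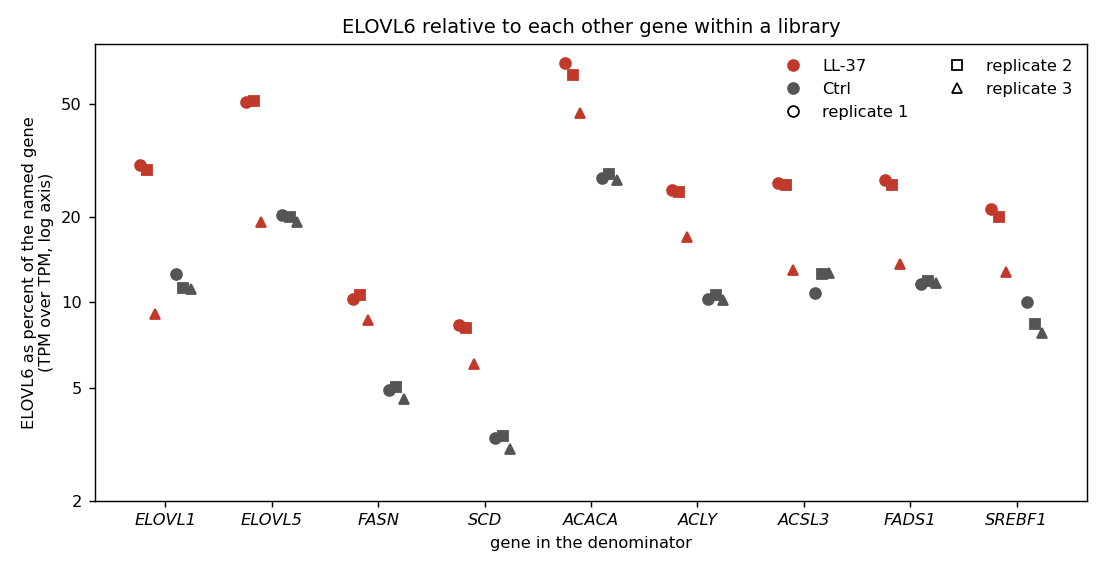
ELOVL6 TPM as a percent of the TPM of each other gene in the same library (log axis), with LL-37 left of Ctrl for each gene and symbols for replicate numbers. All 3 LL-37 libraries are above all 3 Ctrl libraries for 7 of the 9 genes (47.2% over other tested genes of any length). Replicate 3 falls back to the Ctrl range or below it for ELOVL1 and ELOVL5, which have the shortest transcripts of the 9.

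Transcript length moved with the values of LL-37 replicate 3. Tested genes were divided into quartiles by their longest transcript in GENCODE 29. In LL-37 replicate 3 the median difference from the Ctrl mean was -0.13, -0.47, -0.77 and -1.04 on the log2 scale from the shortest to the longest quartile. The 4 quartile medians lay between 0.01 and 0.04 in LL-37 replicate 1 and between -0.05 and 0.00 (-0.0049) in LL-37 replicate 2. ELOVL6 (6454 bases), FASN (8565), SCD (5362), ACACA (9961) and ACSL3 (5679) are in the longest quartile, ACLY (4339), FADS1 (4525) and SREBF1 (4653) in the third, ELOVL5 (3081) in the second and ELOVL1 (1625) in the shortest. In LL-37 replicate 3, 8 of the 10 genes lay below the median of their own quartile, and ELOVL6 and ACSL3 lay above it. With each library's length trend removed, ELOVL6 in LL-37 replicate 3 was 0.40 above the Ctrl mean on the log2 scale, SCD was at -0.63, ACLY at -0.55 and FASN at -0.39. The direction of ELOVL6 in this library thus depended on the correction, and what lowered long transcripts there was not tested.

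**Figure D4:**
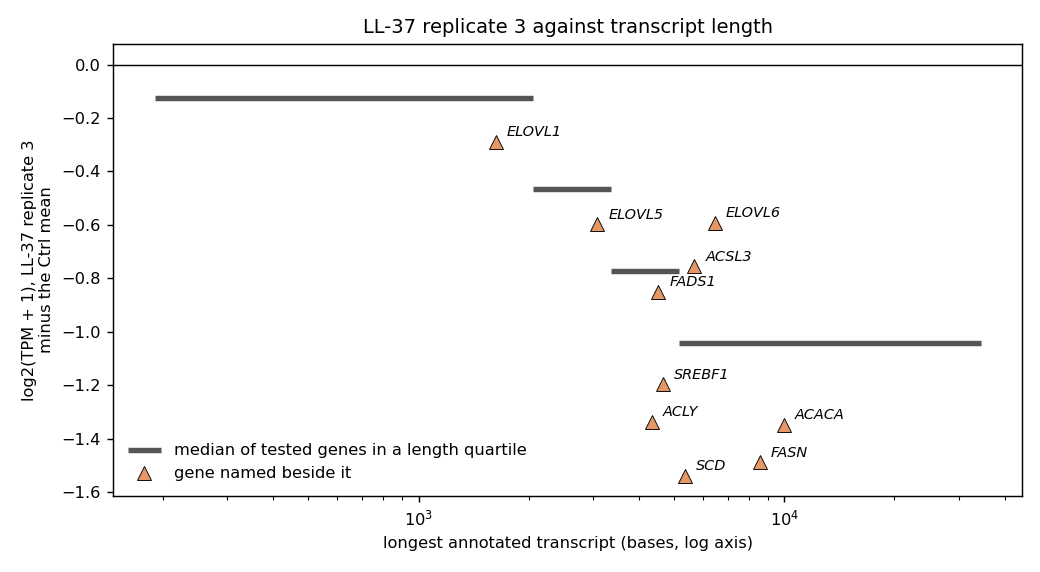
Difference of log2(TPM + 1) in LL-37 replicate 3 from the Ctrl mean (vertical) against the longest annotated transcript (horizontal, log axis), with triangles for the 10 genes and bars for the medians of all tested genes by length quartile. The bars fall to -1.04 at the longest quartile, and ELOVL6 at -0.59 lies above that bar while FASN, SCD and ACACA lie below it.

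The genes whose pattern over the 6 libraries was most like that of ELOVL6, by Pearson's r of log2(TPM + 1), were CEBPB (r = 0.998), TRIM47 (0.997), NR4A1 (0.995), the noncoding CHILL1 (0.988) and PYCR1, of a proline synthesis enzyme (0.984). NR4A1, an immediate early nuclear receptor gene, was 54.7, 49.1 and 20.8 TPM with LL-37 and 27.6, 25.6 and 26.0 TPM in Ctrl. CEBPB, the gene of the transcription factor C/EBP beta, was 92.0, 89.1 and 63.1 TPM with LL-37 and 71.1, 71.8 and 71.9 TPM in Ctrl. All 5 were high in LL-37 replicates 1 and 2 and below Ctrl in replicate 3. Among the 9 other lipid genes r with ELOVL6 ran from 0.356 for ELOVL1 to 0.759 for ACSL3. These correlations share the same 6 libraries and the low values of LL-37 replicate 3.

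A further 98 lipid genes in 8 lists were set beside the 10, and 79 of them were measured. None passed the threshold in the limma fit with all 6 libraries (0 of 79) or without LL-37 replicate 3 (0 of 79), where 0 and 11 had an unadjusted p under 0.05, against 2.52% and 9.01% of all tested genes. Over 6 libraries 10 of the 79 had groups apart, each lower with LL-37, where 10.3% of all tested genes were apart and lower and 2.13% apart and higher. Without LL-37 replicate 3 the count was 16 higher and 12 lower of 79, against 12.3% and 12.9% of all tested genes.

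The elongation cycle list holds the other elongases and the reductases and dehydratases that complete each round (6 of 11 measured). Its median log2 change was -0.21 over 6 libraries and -0.07 when LL-37 replicate 3 was left out. TECR, the enoyl reductase of the final step, was 200.6, 177.1 and 135.6 TPM with LL-37 and 167.7, 176.2 and 184.8 TPM in Ctrl. HSD17B12, the ketoacyl reductase, was 102.0, 96.8 and 85.0 TPM with LL-37 and 109.6, 100.2 and 108.7 TPM in Ctrl. HACD1, a dehydratase gene, was 6.31, 5.50 and 7.04 TPM with LL-37 and 8.80, 8.46 and 7.91 TPM in Ctrl. HACD1 had the lower values in every LL-37 library, replicate 3 included. Its log2 change of -0.37 ± 0.17 (SE) did not pass (limma adjusted p = 0.739), nor did -0.44 ± 0.11 when LL-37 replicate 3 was left out (limma adjusted p = 0.232). HACD1 and its relative HACD3 were the 2 of 6 with groups apart over 6 libraries, both lower. Of all tested genes 10.3% were apart and lower.

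Desaturation genes (7 of 8 measured) had medians of -0.18 over 6 libraries and 0.03 once LL-37 replicate 3 was left out, and the medians of the lists below are given in that order. CYB5B, a cytochrome b5 gene, was 74.0, 70.6 and 65.8 TPM with LL-37 and 77.6, 79.2 and 81.4 TPM in Ctrl, and the ceramide desaturase gene DEGS1 was 64.4, 60.3 and 63.5 TPM with LL-37 and 71.8, 67.2 and 69.5 TPM in Ctrl. Both were lower in each LL-37 library, with limma adjusted p = 0.739 for each. Genes that supply acetyl-CoA, malonyl-CoA and NADPH (10 of 11 measured) had medians of -0.14 and 0.01. The pentose phosphate enzyme gene PGD was 145.4, 147.2 and 115.5 TPM with LL-37 and 148.6, 145.0 and 145.2 TPM in Ctrl. IDH1, of a cytosolic NADPH source, was 94.2, 85.6 and 81.7 TPM with LL-37 and 91.7, 87.1 and 88.5 TPM in Ctrl. The mitochondrial citrate carrier gene SLC25A1 was 74.6, 68.6 and 48.3 TPM with LL-37 and 76.9, 77.8 and 83.5 TPM in Ctrl, with groups apart and a limma adjusted p of 0.739.

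Acyl-CoA synthetases (6 of 12 measured) had medians of -0.22 and 0.01. ACSL4, which prefers polyunsaturated fatty acids, was 27.3, 26.1 and 22.02 TPM with LL-37 and 30.3, 28.9 and 28.4 TPM in Ctrl. SLC27A5, a bile acid and very long chain acyl-CoA synthetase gene, was 23.2, 26.3 and 40.5 TPM with LL-37 and 24.5, 27.8 and 25.8 TPM in Ctrl, with LL-37 replicate 3 the highest library. Genes that control SREBP (12 of 13 measured) had medians of -0.34 and 0.05. With all libraries 0 of the 12 had groups apart, against 12.4% of all tested genes in either direction. INSIG1, which holds SREBP in the endoplasmic reticulum and is itself an SREBP target, was 112.4, 105.0 and 68.1 TPM with LL-37 and 102.6, 95.2 and 102.1 TPM in Ctrl. MLX, the partner of the sugar-responsive factor ChREBP, was 89.0, 88.7 and 87.7 TPM with LL-37 and 87.2, 87.8 and 87.7 TPM in Ctrl.

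Triacylglycerol synthesis genes (12 of 13 measured) had medians of -0.15 and 0.10. The lipid droplet coat gene PLIN2 was 284.9, 283.2 and 251.9 TPM with LL-37 and 267.4, 285.3 and 291.3 TPM in Ctrl, and AGPAT1, of an acyltransferase that makes phosphatidic acid, was 53.2, 48.0 and 23.6 TPM with LL-37 and 45.4, 44.1 and 50.2 TPM in Ctrl. PLIN3, another droplet coat gene, was 45.5, 42.7 and 28.0 TPM with LL-37 and 48.4, 48.6 and 49.95 TPM in Ctrl, with groups apart. Fatty acid oxidation genes (19 of 20 measured) had medians of -0.12 and -0.01. ACADVL, an acyl-CoA dehydrogenase gene, was 467.5, 479.8 and 310.7 TPM with LL-37 and 454.1, 439.9 and 451.2 TPM in Ctrl, and ETFB, of an electron transfer flavoprotein, was 241.0, 257.7 and 231.7 TPM with LL-37 and 230.4, 259.1 and 255.7 TPM in Ctrl. ACADM, the medium-chain dehydrogenase gene, was 34.9, 33.1 and 29.1 TPM with LL-37 and 41.0, 37.4 and 39.1 TPM in Ctrl, lower in each LL-37 library (limma adjusted p = 0.739). Uptake and binding genes (7 of 10 measured) had medians of -0.34 and -0.05. The acyl-CoA binding protein gene DBI was 282.4, 278.3 and 336.9 TPM with LL-37 and 303.1, 296.0 and 274.1 TPM in Ctrl. FABP7, a fatty acid binding protein gene, was 6.89, 6.58 and 3.43 TPM with LL-37 and 7.03, 8.44 and 6.99 TPM in Ctrl.

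**Figure D5:**
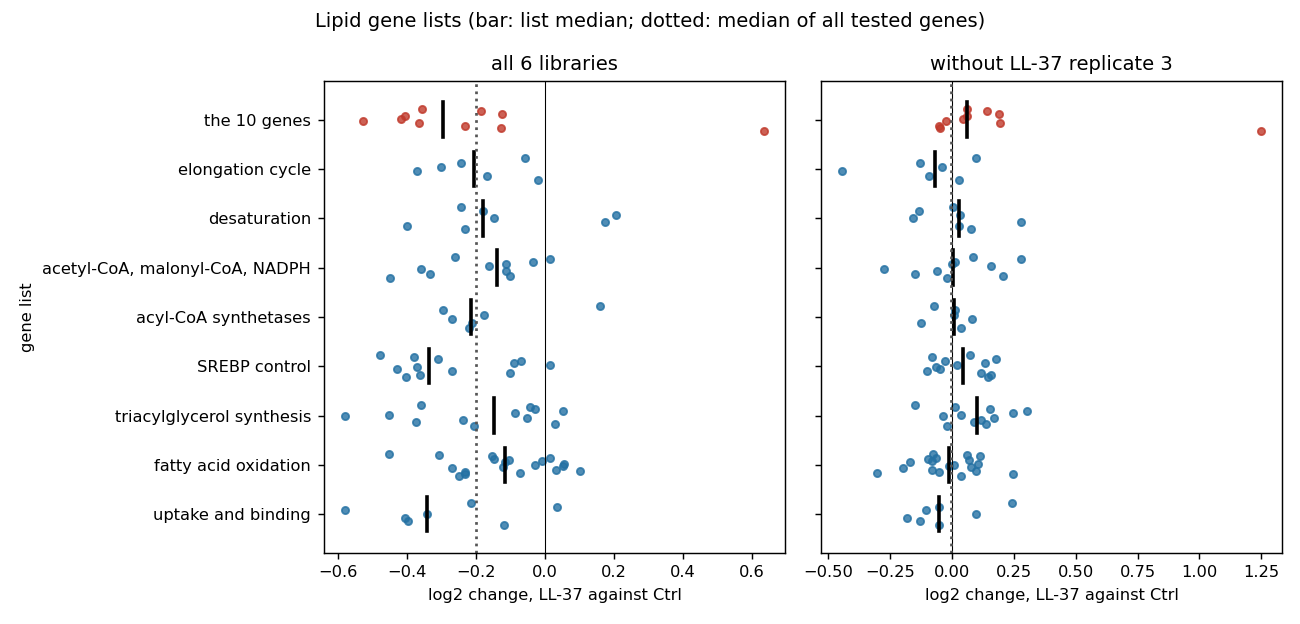
Log2 change of each measured gene by list, with all 6 libraries (left) and without LL-37 replicate 3 (right), bars at list medians and a dotted line at the median of all tested genes (-0.20 and -0.0039). ELOVL6 is the point at 0.64 and 1.25, and the 79 genes of the other 8 lists lie between -0.58 and 0.21 (left) and between -0.44 and 0.30 (right).

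Locations of the 10 genes are given on GRCh38 from GENCODE 29. ELOVL6 (ENSG00000170522) spans 110045846 to 110199199 on chromosome 4. ELOVL1 (ENSG00000066322) lies on chromosome 1 (43363397 to 43368074) and ELOVL5 (ENSG00000012660) on chromosome 6 (53267398 to 53349179). SCD (ENSG00000099194) is on chromosome 10 (100347124 to 100364834), ACSL3 (ENSG00000123983) on chromosome 2 (222860934 to 222944639) and FADS1 (ENSG00000149485) on chromosome 11 (61799625 to 61829318). FASN (ENSG00000169710), ACACA (ENSG00000278540), ACLY (ENSG00000131473) and SREBF1 (ENSG00000072310) are all on chromosome 17, starting at 82078333, 37084988, 41866908 and 17810399.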

How the data were processed

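A375 cells were profiled by RNA-seq with a stranded mRNA kit, per the labels' protocols. The authors deposited TPM per gene for 63140 Ensembl identifiers, of which 62541 matched a gene name table. The submitters' processing notes name the build GRCh38. Which aligner and quantifier were run is not stated there or in the labels. Since TPM keep no sequencing depth, depth is unknown and no counting interval is given. Groups came from the sample titles. The 4 mouse libraries were left out, since their titles and column names contradict each other.

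Values were put on the log2(TPM + 1) scale. Genes reaching 1 TPM in 3 or more libraries (14399) entered limma 3.58.1 under R 4.3.3 (two-sided, intensity trend, Benjamini-Hochberg over all tested genes, threshold 0.05). The fit was tested on simulated data with noise drawn independently for each gene and library. That simulation holds no shift shared by genes, so it cannot speak to the length trend of LL-37 replicate 3. Transcript lengths came from GENCODE 29 for 13878 tested genes (96.4%). Genes, lists and tests were chosen with earlier results of these data known. Beside the 10 genes, the text names from each list the 2 most abundant genes, any past the threshold and the largest change with groups apart, plus the 5 genes most like ELOVL6. One gene that this rule names is not reported here. HACD3, SREBF2 and the marker genes named were picked after seeing values. Each library was left out in turn, and other settings were pseudocounts (0.1, 5), filters (none, 5 TPM), quantile and median-of-ratios normalization, removal of length trends, no intensity trend and a replicate block. Removing length trends and LL-37 replicate 3 together was chosen after seeing the data. Protein sequences were not used here.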

Additional observations from a re-analysis of the deposited data

How the results depend on the processing

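The count of 0 genes past the threshold became 17 without LL-37 replicate 3. Removing length trends as well, a setting chosen after seeing the data, gave 11. It was 0 to 17 over the libraries left out in turn and 0 in the other 9 settings. No gene of the 8 lipid lists passed in any of the 16 settings. The median log2 change of the 10 genes was -0.30, and -0.48 to 0.06 over the libraries left out. It was -0.05 with median-of-ratios scaling, -0.16 with quantile normalization and -0.04 with length trends removed, where the median of all tested genes, -0.20 as deposited, was 0.0023, -0.0067 and -0.0023. ELOVL6 was positive (0.29 to 1.25) and SCD negative (-0.81 to -0.02) in all 16. Median-of-ratios scaling turned ELOVL1 (0.11), ELOVL5 (0.01), ACSL3 (0.12) and FADS1 (0.06) positive, and the other 6 kept their sign in that setting. Leaving out LL-37 replicate 3 turned FASN (0.19), ACACA (0.05), ACLY (0.06), ACSL3 (0.19), FADS1 (0.14) and SREBF1 (0.06) positive. Removing length trends turned ACSL3 (0.19) and FADS1 (0.09) positive. Of the 79 lipid list genes 12.7% (10) had groups apart, as had 12.4% of all tested genes. Leaving out Ctrl replicate 2 gave 20 (25.3%, against 26.7%), LL-37 replicate 1 gave 21 (26.6%, against 28.2%) and LL-37 replicate 3 gave 28 (35.4%, against 25.1%), or 35 (44.3%, against 30.0%) with length trends removed too. The cause was not tested. Correlations of deviations from the group means were 0.0912, -0.196 and -0.168 for libraries of the same replicate number. For libraries of different numbers they ran from -0.208 to 0.25. LL-37 replicate 3 enters the LL-37 group mean used here, so these values cannot settle whether the libraries were paired. The fit with the replicate block gave 0 genes. Depth is unknown, and 3 libraries per group limit the precision.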
